A study of Mus musculus with 2 samples.

Results

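The genes described here make up the machinery that cuts, protects and crosslinks the extracellular matrix: the matrix metalloproteinases, the ADAM and ADAMTS proteases, the TIMP inhibitors, the plasminogen activators, the lysyl hydroxylases and lysyl oxidases, and the transglutaminases Tgm1 and Tgm2. They were chosen by name, with earlier results of these data known. The rule took every non-control probe on the array whose gene name is an Mmp, Timp, Adam, Adamts, Loxl or Plod name with a number. It also took those named Lox, Plau, Plaur, Plat, Tgm1 or Tgm2. This gave 145 of the 41174 probes, for 83 of the 27962 gene names on the array.

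The samples were stromal cells of the fetal thymus of C57BL/6 mice, taken at E14.5 or E15.5, with 1 array for each stage. Deoxyguanosine (1.35 mM), a drug that removes developing T cells, was given to whole lobes during 8 days (E14.5) or 9 days (E15.5) of organ culture, and the lobes were then dispersed with an enzyme. The cells were grown for 72 h either as a reaggregation thymus organ culture (RTOC), in which they are packed together on a membrane and rebuild a solid tissue, or flat on a dish (2D culture). RTOC and 2D culture therefore share the strain, the drug and the dispersal, and the cells hold whatever mixture of epithelium, mesenchyme and other non-lymphoid cells remained. On each array the RTOC RNA carried the red dye Cy5 and the 2D RNA the green dye Cy3, with no array of swapped dyes, so that a dye effect of a single probe cannot be told apart from a culture effect. The same holds for stage, the length of organ culture and array, which cannot be told apart. The labels do not say whether the arrays came from separate litters or how many fetuses were pooled, and p-values measure only the spread between these 2 arrays. Per channel, 53.1% to 60.9% of probes stood well above background.

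The extracellular matrix is built from secreted proteins that are modified and crosslinked, and it is taken apart by secreted or membrane-bound proteases that are held in check by inhibitors. Lysyl hydroxylases modify lysines of collagen inside the cell, and lysyl oxidases later oxidise lysines of collagen and elastin outside it, from which the crosslinks form. In the thymus the mesenchyme lays down much of this matrix and lines the capsule and vessels, while the epithelium forms an open network within it.

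Across the family, transcripts were mostly lower in RTOC than in 2D culture. Of the 83 genes, 54 could be tested, meaning that a probe was well above background in at least 1 culture on each array. Each gene is given by its brightest tested probe, as the log2 ratio of RTOC over 2D culture after quantile normalization, and a gene is said to have changed where limma gave an adjusted p under 0.05. At this threshold 24 of the 54 genes changed, 21 lower and 3 higher in RTOC. Of all 16249 tested genes, 28.7% passed the same threshold, 12% lower and 16.6% higher. The median log2 ratio of the members was -0.95, against 0.05 over all tested genes. On both arrays 39 members were lower and 9 were higher, against 6125 lower and 6851 higher of all 16249 tested genes. The other 6 members had opposite signs, as 20.1% of all tested genes did. At least 2-fold lower on both arrays were 17 members (8.54% of all tested genes), and at least 2-fold higher were 2 (12% of all tested genes). Where all 4 channels were well above background, 19 of 43 members had changed, 18 lower and 1 higher, against 24.7% of 14034 genes. With each array centred on its median in place of quantile normalization, 22 members were lower and 6 higher, and the share of lower among all called genes went from 42.0% to 31.4%.

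**Figure D1:**
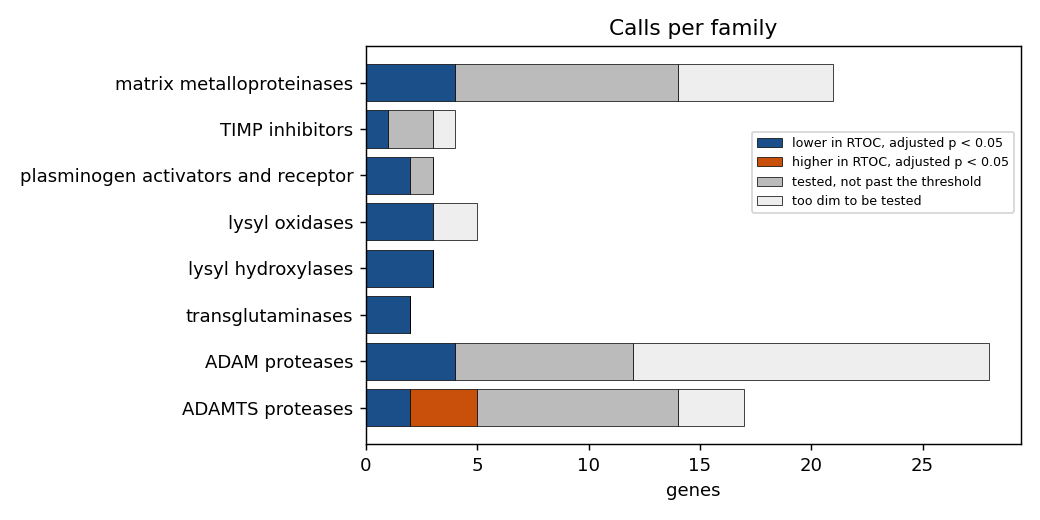
Number of genes in each family (x axis) that were lower or higher in RTOC at an adjusted p under 0.05, tested without passing the threshold, or too dim to be tested. By their brightest probes, the tested lysyl oxidases, lysyl hydroxylases and transglutaminases were all lower. The 3 genes that were higher are among the 14 tested ADAMTS proteases (21.4%, against 16.6% of all tested genes).

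Every tested crosslinking enzyme was lower in RTOC: 8 of 8 (all 3 lysyl hydroxylases, 3 of 5 lysyl oxidases and both transglutaminases), against 12% of all tested genes called lower. Lox, which oxidises lysines of collagen and elastin, had a normalised signal of 13754 (E14.5) and 14411 (E15.5) in 2D culture, and of 1666 and 1876 in RTOC. The cultures did not overlap, and the 2 arrays nearly coincided. The log2 ratio of Lox was -3.05 and -2.94, which averaged -2.99 ± 0.074 (SD, n = 2 arrays) and makes Lox 7.96-fold lower in RTOC (SE 0.25, adjusted p = 0.00223 by limma). For Loxl2, which acts on basement membrane collagen, the signal was 11823 and 24953 in 2D culture and 2771 and 5308 in RTOC, E14.5 first. Its level was higher at E15.5 in both cultures, and the ratio was nearly the same on both arrays, at -2.09 and -2.23 (4.48-fold lower, adjusted p = 0.00412). Loxl1, known for its part in elastic fibres, went from 8019 and 8081 in 2D culture to 3134 and 3833 in RTOC (2.32-fold lower, mean log2 ratio -1.22 ± 0.20, adjusted p = 0.0224). Loxl3 and Loxl4 were too dim to be tested.

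The 3 lysyl hydroxylases were lower to differing degrees. Plod2, the enzyme that modifies the collagen telopeptides, had signals of 10306 and 12664 in 2D culture against 2488 and 3120.1 in RTOC, and its ratio was -2.05 and -2.02 on the log2 scale (4.10-fold lower, adjusted p = 0.00470). Plod1, which modifies lysines of the collagen helix, was 2.40-fold lower (log2 ratios -1.41 and -1.12, adjusted p = 0.0202). Plod3, which also adds sugars to hydroxylysine, was 2.37-fold lower (log2 ratios -1.18 and -1.31, adjusted p = 0.0200). After normexp and loess the mean log2 ratio of Plod1 was -0.67, still past the threshold. Differences between Plod2 and the other two were not tested.

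The transglutaminases, which join glutamine and lysine side chains, were lower as well, and their signal in 2D culture differed between the arrays. Tgm2, the widespread tissue enzyme, read 2444 (E14.5) and 9092 (E15.5) in 2D culture and 1133 and 2917 in RTOC, so that the RTOC signal at E15.5 lay above the 2D signal at E14.5. Within each array it was lower in RTOC, with log2 ratios of -1.11 and -1.64 (mean -1.37 ± 0.38, adjusted p = 0.0193). Tgm1, known from the cornified envelope of keratinocytes, read 241 and 707 in 2D culture and 125 and 181 in RTOC (log2 ratios -0.95 and -1.96, adjusted p = 0.0275). With normexp background correction and loess in place of quantile normalization, Tgm1 did not pass the threshold (mean log2 ratio -0.51). The median size of the difference between the 2 arrays' log2 ratios was 0.21 over the 8 crosslinkers and 0.40 over all tested genes.

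**Figure D2:**
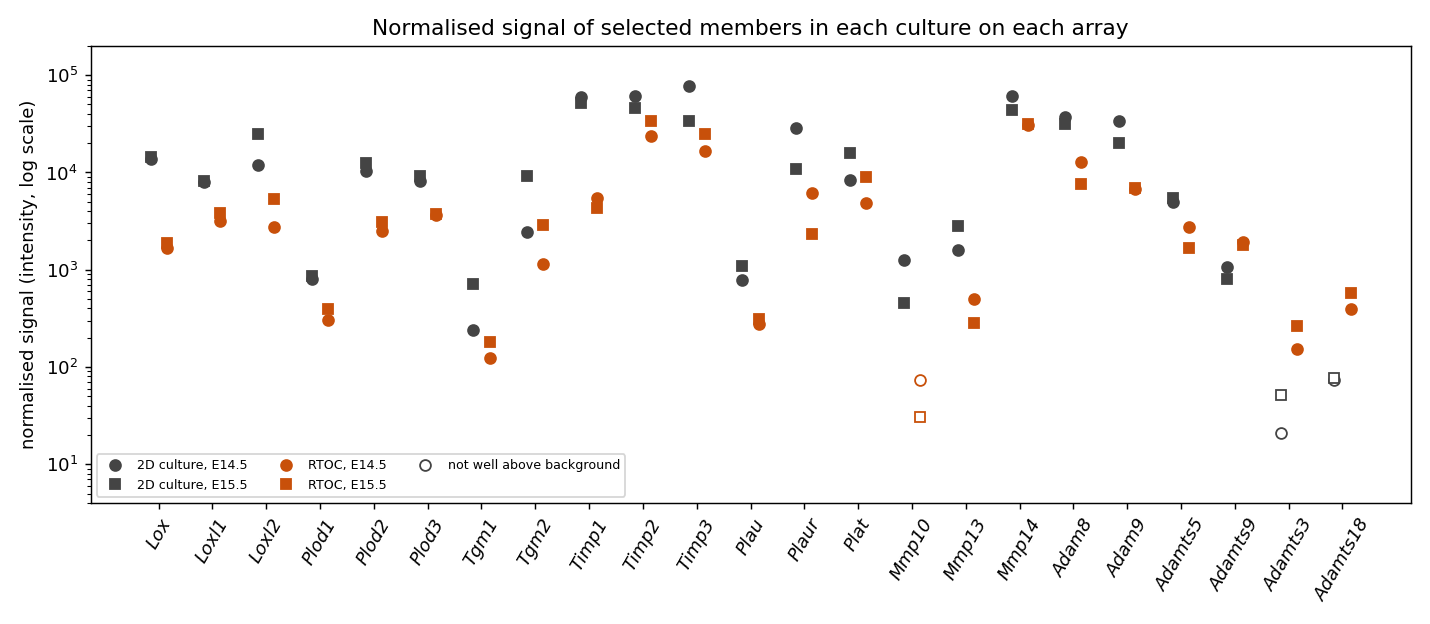
Normalised signal (intensity, log scale) of 23 members in 2D culture (grey) and RTOC (orange) on the E14.5 (circles) and E15.5 (squares) arrays, with open symbols where the spot was not well above background. Lox, Timp1 and Plaur separate the cultures on both arrays, and Mmp10, Adamts3 and Adamts18 were well above background in only 1 of the cultures; probes differ in brightness, so heights compare cultures of the same gene only.

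The matrix metalloproteinases were less uniform. Of 21 genes 14 were tested, and 4 had changed, all lower in RTOC (28.6%, against 12% lower among all tested genes). Mmp10, a stromelysin, read 1267 (E14.5) and 455 (E15.5) in 2D culture and 74.1 and 30.5 in RTOC, where it was not well above background on either array. The measured log2 ratios were -4.10 and -3.90 (adjusted p = 0.00161), and since the RTOC signal is only a bound, Mmp10 was at least 2.35-fold lower in RTOC. That bound is the ratio of the 2D to the RTOC signal after normexp (offset 50), loess and quantile scaling of the arrays' mean intensity. An RTOC signal below the lowest one among probes well above background was raised to that value, which did not apply to Mmp10. Mmp13, a collagenase, fell from 1595 and 2799.8 in 2D culture to 496 and 282 in RTOC (5.65-fold, adjusted p = 0.0125), with log2 ratios of -1.68 and -3.31. Mmp12, the macrophage elastase, read 496 and 1873 against 258 and 441 (log2 ratios -0.94 and -2.09, adjusted p = 0.0286). Mmp17, which is anchored to the membrane by a lipid, read 761 and 759.7 against 292 and 371 (log2 ratios -1.38 and -1.03, adjusted p = 0.0238). After normexp and loess the mean log2 ratio of Mmp10 was -1.23 and that of Mmp13 -1.52, both still past the threshold. For Mmp10 this ratio and the bound are the same measurement. Mmp12 and Mmp17 missed the threshold after normexp and loess, at mean log2 ratios of -0.80 and -0.60.

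Mmp14, Mmp2 and Mmp9, proteases often named with matrix turnover, did not pass the threshold by their brightest probe. Mmp14, the transmembrane collagenase that activates Mmp2, read 61056 and 43852 in 2D culture and 30895 and 31477 in RTOC (log2 ratios -0.98 and -0.48, adjusted p = 0.0979). The gelatinase Mmp2 had log2 ratios of opposite sign, -0.23 and 0.80 (adjusted p = 0.552). The other gelatinase, Mmp9, read 221 (E14.5) and 1614 (E15.5) in 2D culture and 791 and 1779 in RTOC, for log2 ratios of 1.84 and 0.14 (adjusted p = 0.145). Mmp11, a stromelysin activated inside the cell, had nearly equal log2 ratios of -0.70 and -0.66 (adjusted p = 0.0944), and Mmp28 had log2 ratios of 0.21 and 0.64 with its 2D signal not well above background (adjusted p = 0.274).

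The ratios of many metalloproteinases differed between the 2 arrays. The 2 log2 ratios differed by more than 1 in 9 of 14 tested metalloproteinases and in 2355 of all 16249 tested genes, a description without a test of the difference. In 7 of the 9 the ratio was lower on the E15.5 array, and in 7 of the 9 the 2D signal changed more between the arrays than the RTOC signal did. These last counts were not made over all tested genes, so whether they are particular to the metalloproteinases was not tested. Mmp15, a transmembrane protease, read 192 in 2D culture at E14.5 and 2886 at E15.5, and 128 and 453 in RTOC, so that its log2 ratio went from -0.58 to -2.67 (adjusted p = 0.0645). Mmp16, its close relative, had log2 ratios of -0.25 and -2.53 (adjusted p = 0.111). The neutrophil collagenase Mmp8 had log2 ratios of -0.70 and -3.33 (adjusted p = 0.0601), and Mmp23 of -0.23 and -1.77 (adjusted p = 0.124). Each of these 4 was lower in RTOC on both arrays without passing the threshold. Mmp8 and Mmp15 did pass with median centring (adjusted p = 0.0244 and 0.0328), Mmp8 also with the deposited ratios (adjusted p = 0.0459) and Mmp15 with the stricter filter on dim probes (adjusted p = 0.0433). Mmp3, a stromelysin, was dim and had log2 ratios of opposite sign, -2.04 and 1.78 (adjusted p = 0.921). With 1 array a stage, a difference between stages cannot be tested.

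**Figure D3:**
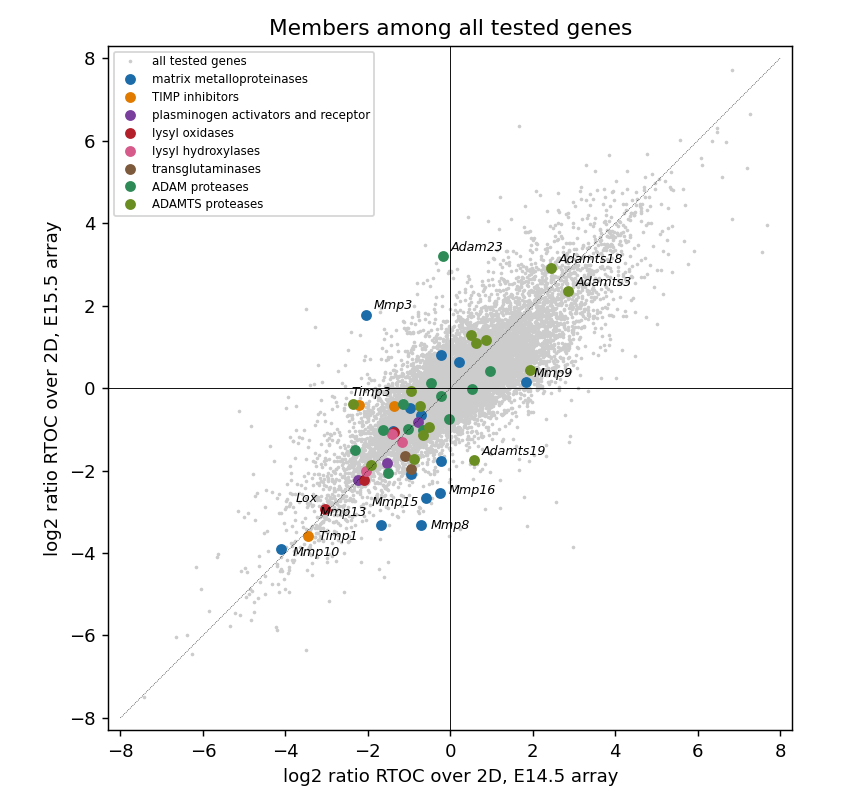
Log2 ratio of RTOC over 2D culture on the E14.5 array (x axis) and the E15.5 array (y axis) for all 16249 tested genes (grey) and the 54 tested members, coloured by family, with the dotted line where both arrays are equal. Lox, Timp1 and Mmp10 lie near that line in the lower left, while Mmp15, Mmp16, Mmp8 and Adam23 lie away from it.

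Mmp10, Mmp12 and Mmp13 lie together. In the RefSeq annotation of the mouse assembly GRCm38.p6 the genes Mmp13, Mmp12, Mmp1b, Mmp3, Mmp1a, Mmp10, Mmp8, Mmp27, Mmp20 and Mmp7 follow each other on chromosome 9 in this order, with no other protein-coding gene among them. Of these 10 genes 8 were on the array as members, 5 were tested, and 3 were lower in RTOC; the other two tested were Mmp3 and Mmp8, and Mmp1a, Mmp7 and Mmp20 were too dim. The array files name no genome build, so these positions describe the annotation only.

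The promoters are shown because several of the genes that fell share a short run of letters. AP-1 is a pair of Fos and Jun proteins that binds the letters TGAGTCA, and it is a textbook regulator of stromelysins and collagenases. The RefSeq promoter table (GRCm38.p6, 250 bases before the start and 50 after it) held 51 promoters for 45 of the 83 members. TGAGTCA or its reverse complement TGACTCA occurred in 10 of the 51 (19.6%) and in 5.20% of all 32851 promoters in the table. It occurred in 4 of the 12 promoters of members that were lower in RTOC, those of Mmp10, Mmp12, Mmp13 and Plaur. These 12 promoters belong to 10 of the 21 lower members, and no promoter of the other lower members was searched. It occurred in 0 of the 3 promoters of members that were higher. It also occurred in 2 of 20 promoters of members that did not pass the threshold and in 4 of 16 of members too dim to be tested. All 8 cluster members on the array had a promoter in the table, and 6 of them held the letters. The following 27-base windows show them 5′ to 3′ on the strand of the gene, which is the plus strand in each, with the AP-1 letters in capitals.
Plaur, chr7:24462404-24462430: cccctggagcTGACTCActctttagca
Mmp13, chr9:7272469-7272495: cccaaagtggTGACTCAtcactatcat
Mmp12, chr9:7347320-7347346: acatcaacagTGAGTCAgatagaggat
Mmp3, chr9:7445766-7445792: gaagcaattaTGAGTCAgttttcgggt
Mmp1a, chr9:7464058-7464084: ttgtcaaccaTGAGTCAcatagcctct
Mmp10, chr9:7502269-7502295: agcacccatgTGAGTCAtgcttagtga
Mmp7, chr9:7692017-7692043: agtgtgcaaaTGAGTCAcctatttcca
The letters lay between 29 and 73 bases before the annotated start in these 7 promoters. TATAAA occurred in 23.5% of the members' promoters and in 13.6% of all, and GGAATG, the letters bound by TEAD proteins, in 7.84% and 14.7%, both counted on both strands. A match of letters is not a measured binding site.

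For the full context, the promoter of Mmp10, a member that was lower in RTOC, and for contrast that of Adamts18, a member that was higher, read as follows, again with the AP-1 letters in capitals. The first is chr9:7502092-7502391 on the plus strand and the second chr8:113848790-113849089 on the minus strand of GRCm38.p6.
Mmp10: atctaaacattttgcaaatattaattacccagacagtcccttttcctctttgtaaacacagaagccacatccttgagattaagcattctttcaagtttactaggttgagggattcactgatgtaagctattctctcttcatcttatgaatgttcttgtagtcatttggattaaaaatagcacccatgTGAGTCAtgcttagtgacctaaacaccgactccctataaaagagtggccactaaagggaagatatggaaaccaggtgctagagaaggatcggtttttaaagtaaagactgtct
Adamts18: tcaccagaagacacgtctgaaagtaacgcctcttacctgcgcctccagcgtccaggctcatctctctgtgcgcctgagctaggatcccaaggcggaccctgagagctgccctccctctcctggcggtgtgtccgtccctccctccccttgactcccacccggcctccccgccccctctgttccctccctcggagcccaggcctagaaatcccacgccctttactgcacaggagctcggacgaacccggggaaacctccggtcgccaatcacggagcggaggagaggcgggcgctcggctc
The Mmp10 promoter holds TGAGTCA from 63 to 57 bases before the start and TATAAA from 29 to 24 bases before it. None of the 3 motifs searched is in the Adamts18 window. The promoter of Timp1, which was lower in RTOC (mean log2 ratio -3.53), holds neither TGAGTCA nor its reverse complement. Nor does that of Adamts3, which was higher. Only these exact letters were searched, so AP-1 sites with other letters were not looked for in any of these promoters.

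The TIMP proteins bind and block metalloproteinases. Timp1 read 60134 (E14.5) and 52324 (E15.5) in 2D culture and 5458 and 4315 in RTOC. The cultures were far apart on both arrays, with log2 ratios of -3.46 and -3.60, or 11.6-fold lower in RTOC (mean -3.53 ± 0.10, SE 0.25, adjusted p = 0.00172), and its other two probes gave means of -3.85 and -2.56. Timp2, which also takes part in the activation of Mmp2 by Mmp14, read 61142 and 45933 against 23705 and 34040.3 (log2 ratios -1.37 and -0.43, adjusted p = 0.0875). Timp3, which binds to the matrix and also blocks Adam17, had uneven log2 ratios of -2.22 and -0.41 that did not pass the threshold (adjusted p = 0.0841). Timp4 was too dim to be tested.

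In the plasminogen system, the activator Plau (urokinase) and its receptor Plaur were lower in RTOC. Plaur read 28763 and 10897 in 2D culture and 6134 and 2340.0 in RTOC, E14.5 first. Its level differed between the arrays in both cultures by a similar factor, and the log2 ratios were all but equal, -2.23 and -2.22 (4.67-fold lower, adjusted p = 0.00382). Plau went from 792 and 1091 to 275 and 310.2 (3.18-fold lower, log2 ratios -1.52 and -1.81, adjusted p = 0.00899), with a mean log2 ratio of -0.87 after normexp and loess, still past the threshold. The tissue activator Plat had nearly equal log2 ratios on the arrays, -0.78 and -0.83, and stayed just outside the threshold (adjusted p = 0.0624), which it passed after normexp and loess (adjusted p = 0.0334).

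The ADAM proteases are membrane proteins, and several cut growth factors and receptors from the cell surface. Of 28 genes 12 were tested, and 4 were lower in RTOC (12% of all tested genes) and 0 higher (16.6% of all tested genes). Adam9 read 33761 and 19934 in 2D culture and 6814 and 7004 in RTOC (3.76-fold lower, log2 ratios -2.31 and -1.51, adjusted p = 0.00982). Adam8, known from myeloid cells, was 3.45-fold lower (36894 and 31664 against 12867 and 7646, adjusted p = 0.00892). Both separated the cultures on each array. Adam12 read 172 and 146 against 55.5 and 72.0, and was well above background in RTOC on the E15.5 array only (mean log2 ratio -1.33, adjusted p = 0.0227).

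Adam10, the sheddase of Notch receptors, was 2.01-fold lower with nearly equal log2 ratios of -1.03 and -0.98 (adjusted p = 0.0354), while Adam17, the sheddase of TNF, had ratios of 0.53 and -0.022 (adjusted p = 0.522); the difference between them was not tested. Adam10 was dim, at 258 and 311 in 2D culture, and after normexp and loess neither Adam10 (mean log2 ratio -0.25) nor Adam12 (-0.23) passed the threshold, and with median centring Adam10 missed it too (-0.82). Adam15 had log2 ratios of -0.67 and -1.02 (adjusted p = 0.0624). The 16 untested genes of the family include Adam2, Adam18, Adam24, Adam26a, Adam29 and Adam30, names known from testis and sperm, and 14 of the 16 were well above background in no channel with any probe.

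The ADAMTS proteases are secreted, and by their brightest probes all 3 members that were higher in RTOC belong to them. Of 17 genes 14 were tested: 3 were higher (21.4%) and 2 lower (14.3%), shares near the 16.6% and 12% of all tested genes. Probes of Adam23 and Adam28 other than the brightest were also higher, as given below. Adamts18 and Adamts3 were tested only through their RTOC signal, and Adamts9 was the 1 higher member with all 4 channels well above background. Adamts18 read 72.8 (E14.5) and 77.4 (E15.5) in 2D culture, not well above background, and 397 and 581 in RTOC, which was at least 1.80-fold higher (measured log2 ratios 2.45 and 2.91, adjusted p = 0.00293). Adamts3, which removes the amino-terminal propeptide of procollagen, likewise went from 21.1 and 51.3, not well above background, to 153 and 261, at least 1.31-fold higher (measured log2 ratios 2.86 and 2.35, adjusted p = 0.00323). Adamts9, a versican-cutting protease, was measured in both cultures, with 1061 and 803 against 1919 and 1811 (2.02-fold higher, log2 ratios 0.85 and 1.17, adjusted p = 0.0376), and its other two probes gave mean log2 ratios of 2.22 and 1.15.

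Adamts5, an aggrecanase, moved the other way: it read 5018 and 5459.6 in 2D culture and 2734 and 1663 in RTOC (2.45-fold lower, log2 ratios -0.88 and -1.72, adjusted p = 0.0310). Its second probe did not pass (log2 ratios -0.25 and -1.44, adjusted p = 0.128), nor did Adamts5 with the median over its probes (mean log2 ratio -1.07). Adamts8 was not well above background in RTOC and was at least 1.28-fold lower (278 and 180.1 against 72.8 and 49.1, adjusted p = 0.00573). After normexp and loess, Adamts3 (mean log2 ratio 0.45) and Adamts8 (-0.36) no longer passed the threshold, and Adamts18 did at a mean log2 ratio of 0.85. All 3 genes are dim, and their bounds were taken after an offset of 50 was added to each signal. Which of these keeps the bounds small was not tested. For Adamts8 and Adamts18 the bound and the normexp and loess ratio are the same measurement.

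**Figure D4:**
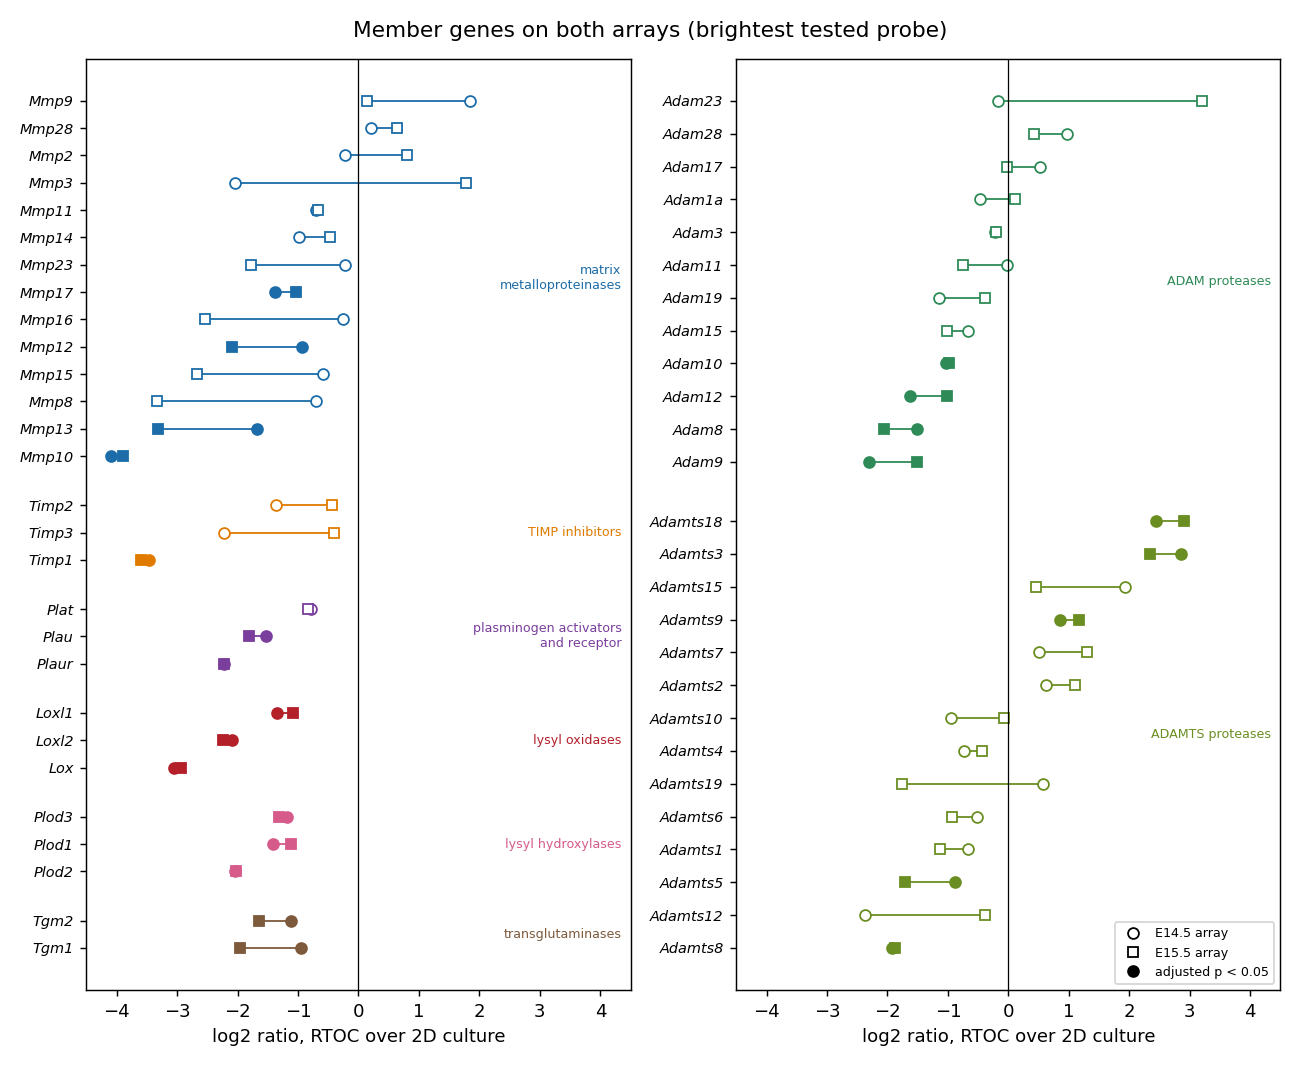
Log2 ratio of RTOC over 2D culture (x axis) of the 54 tested members on the E14.5 (circles) and E15.5 (squares) arrays, joined by a line and grouped by family, filled where the adjusted p is under 0.05. The lysyl oxidases, lysyl hydroxylases, Timp1, Plaur and Mmp10 have short lines left of 0, and the metalloproteinases Mmp3, Mmp8, Mmp15 and Mmp16 have long ones.

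A second probe often gave a larger ratio than the brightest one. Counted by probe, 42 of the members' 81 tested probes passed the threshold (28.8% of all 23685 tested probes did), 10 of them higher (15.2% of all) and 32 lower (13.6% of all). Of the 21 members with more than 1 tested probe, 20 had all their probes on the same side of 0, and the exception was Adamts2, with probes from -0.16 to 1.72. In 7 genes the brightest probe did not pass the threshold but another did: Mmp14, Plat, Adam15, Adam23, Adam28, Adamts1 and Adamts2, of which Adam23, Adam28, Adamts1 and Adamts2 are named here after their values were seen. In Adamts5 the brightest probe passed and the other did not. The second probe of Mmp14 gave log2 ratios of -1.15 and -1.24 (adjusted p = 0.0217), and that of Plat gave -0.82 and -1.12 (adjusted p = 0.0416). For Adam28, a lymphocyte ADAM, the brightest probe had a mean of 0.69 and the others of 2.86 and 3.01 (adjusted p = 0.00235 and 0.00382). The 2 probes of Adam23, an ADAM without protease activity, had means of 1.51 and 2.49 (adjusted p = 0.187 and 0.0231), with log2 ratios of -0.18 (E14.5) and 3.20 (E15.5) for the brightest. The 2 probes of Adamts1 differed likewise, at -0.90 and -1.75. Among the crosslinkers and inhibitors with several probes, all probes passed, from -3.85 to -2.56 for Timp1, from -3.00 to -2.16 for Loxl2, from -2.09 to -1.24 for Plod3 and from -1.81 to -1.37 for Tgm2. Whether the probes of a gene meet different transcripts was not tested.

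**Figure D5:**
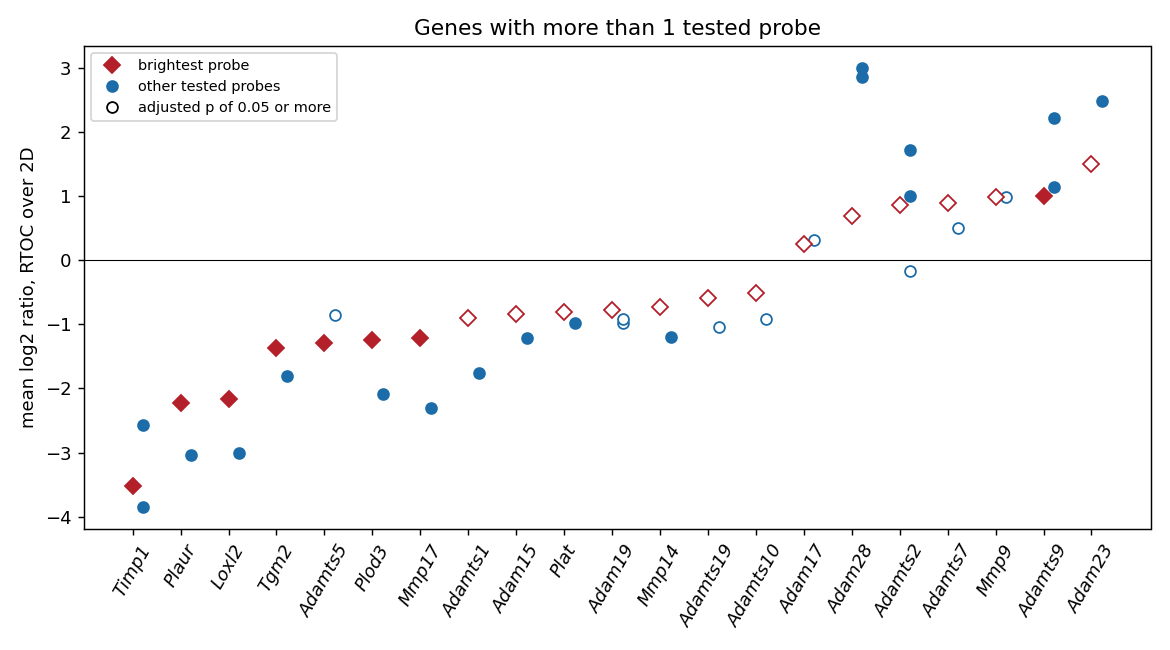
Mean log2 ratio of RTOC over 2D culture (y axis) of each tested probe in the 21 members with more than 1 tested probe, with the brightest probe as a diamond, the others as circles, and open symbols at an adjusted p of 0.05 or more. All probes of a gene lie on the same side of 0 except those of Adamts2, and in Adam28 the brightest probe lies well below the others.

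The partners and substrates of these enzymes were followed through 7 related lists of 97 genes. Of the 75 tested, 13 were higher and 33 lower in RTOC, with a median log2 ratio of -0.72. The counts of each list that follow stand against 16.6% higher and 12% lower among all tested genes. The matrix proteins that the enzymes cut or crosslink were lower in 12 of 16 and higher in 1. Fibrillin Fbn1 (4.76-fold lower), fibronectin Fn1 (mean log2 ratio -2.20) and the collagen chain Col1a1 (4.47-fold lower) led them (adjusted p = 0.00750, 0.00656 and 0.00551). Genes that process and modify procollagen were lower in 8 of 18 and higher in 2. There Tll1, a tolloid protease, was not well above background in RTOC and was at least 2.22-fold lower (adjusted p = 0.00161). The enhancer Pcolce2 was 5.04-fold higher (adjusted p = 0.00474), and Glt25d2, a collagen galactosyltransferase, was at least 1.25-fold higher (adjusted p = 0.00438), although it did not pass after normexp and loess (mean log2 ratio 0.35).

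Among the activators and inhibitors of proteases 4 of 19 were higher and 7 lower. Among those higher in RTOC were 5033414D02Rik, the plasminogen receptor Plgrkt under its older name, 12.2-fold (adjusted p = 0.00367), and Serpini1, an inhibitor of Plat, 5.87-fold (adjusted p = 0.00318). Of 8 tested partners of Adam10 and Adam17, 3 were higher and 1 lower. Tspan5, a tetraspanin that carries Adam10, was 3.43-fold higher (adjusted p = 0.00788) and Rhbdf2, which carries Adam17, 3.23-fold higher (adjusted p = 0.00871), while 1200004M23Rik was 2.29-fold lower (adjusted p = 0.0259). Both called members of the ADAMTS-like list were lower, Adamtsl4 6.95-fold and Adamtsl5 5.32-fold, of 3 tested (adjusted p = 0.00351 and 0.00340), and Adamtsl4 did not pass after normexp and loess (mean log2 ratio -1.18).

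The other matrix and surface proteases split evenly, with 3 of 11 higher and 3 lower. Cathepsin L (Ctsl), a lysosomal protease of the thymic epithelium, was 8.47-fold higher, with signals of 26005 and 40031 in 2D culture and 273428 and 273431 in RTOC (adjusted p = 0.00247). The fibroblast protease Fap was 5.25-fold higher (adjusted p = 0.00383) and the serine protease Prss23 8.76-fold lower (adjusted p = 0.00247). None of the other transglutaminases could be tested.

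Markers of several cell types moved between the cultures along with these genes. The counts that follow stand against 16.6% higher and 12% lower among all tested genes. Of 7 tested smooth muscle and pericyte markers 5 were lower and 1 higher in RTOC, and their summed signal was 598865 and 564201 in 2D culture and 72350.1 and 50016 in RTOC, with Des not well above background. Such sums follow the brightest probes, here Acta2 (277478 and 253347 in 2D culture) and Tagln (262153 and 222820 in 2D culture). The higher marker was Rgs5, at 9.53-fold. Fibroblast and mesenchyme markers were lower in 4 of 11 and higher in 3 (summed signal 465054 and 359348 against 304012 and 313078). Of 7 tested endothelial markers 6 were higher (1588 and 726 against 7857 and 12367), and of 9 macrophage and myeloid markers 5 were higher (72432 and 59091 against 174338 and 222039), although Mmp12 and Adam8, both known from myeloid cells, were lower. The thymic epithelial markers, all 10 of which were tested, were higher in 5 and lower in 2 (310355 and 638505 against 722000.0 and 804044). Krt8 and Krt18, the brightest of them in 2D culture, did not pass the threshold. Of the T lymphocyte markers 1 of 5 tested was higher and 1 lower (3666 and 7103 against 4082 and 3045), with Cd8a not well above background. The lower one, Thy1, is also counted among the fibroblast and mesenchyme markers. Within these sums Thy1 read 3002 and 6133 in 2D culture and 1583 and 2058 in RTOC. The higher one was Cd3g (mean log2 ratio 3.84, adjusted p = 0.00174), whose 2D signal at E15.5 was dim. In bulk RNA, fewer cells of a type and less RNA per cell cannot be told apart, and the part of these shifts in the results above was not tested.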

How the data were processed

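RNA of thymic stromal cells from 2D culture (Cy3) and RTOC (Cy5) was hybridized to 2 two-colour Agilent arrays, 1 for each stage, on the same slide and in the same scan. The authors made the files with Feature Extraction. The deposited spot values are an intensity per channel, with background subtracted and dyes normalized in the processed signal, and a log10 ratio of Cy5 over Cy3. The deposited series values are the log10 ratio of the processed signals. The file headers name Feature Extraction version 9.1.3.1 and the submitters' processing notes 11.5.1.1. The methods state quantile normalization over all arrays.

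Here, control spots and spots marked as outliers (5 at E14.5 and 1 at E15.5) were left out, and the processed signals of all 4 channels were quantile normalized and turned to log2 ratios, with spots of the same probe averaged. Probes well above background in at least 1 channel on each array were tested (23685 of 41174) with limma 3.58.1 in R 4.3.3, with an intercept, eBayes and Benjamini-Hochberg adjustment over all tested probes, two-sided, and called at an adjusted p under 0.05. The residual degrees of freedom are 1, so the test rests largely on the spread shared over probes (4.50 prior degrees of freedom). The number of arrays and the signal over background limit the precision. Of the 145 member probes, 116 were matched to RefSeq by accession and 29 by symbol. A gene was taken by its brightest tested probe. No member probe was saturated.

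The members and gene lists were chosen with earlier results of these data known. The text names all tested metalloproteinases, TIMPs, lysyl oxidases and hydroxylases, plasminogen activators with their receptor, and transglutaminases; the ADAM and ADAMTS genes past the threshold with a mean log2 ratio of at least 1 in size, plus Adam9, Adam10, Adam15 and Adam17; the 3 largest called genes of each related list, of which 1 is not reported here; and promoters of at most 5 members with the largest ratio. Promoter windows of other members and probes of Adam23, Adam28, Adamts1 and Adamts2 were added after their values were seen. Alternatives were normexp (offset 50) with loess, with Aquantile added, median centring, the deposited ratios, no filter or a stricter filter on dim probes, outlier spots kept, the methods' t-test with adjustment, eBayes with a trend and robust, a 2-fold threshold, each array left out, and the median over probes.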

Additional observations from a re-analysis of the deposited data

Results flagged for a closer look

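Mmp3, a stromelysin, was lower in RTOC than in 2D culture at E14.5 (log2 ratio -2.04) and higher at E15.5 (log2 ratio 1.78), so that the 2 stages went opposite ways. The signal was 87.7 in 2D culture and 21.4 in RTOC at E14.5, and 14.45 and 49.5 at E15.5. It was well above background only in 2D culture at E14.5 and in RTOC at E15.5. With 1 array a stage the difference was not tested.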

How the results depend on the processing

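With no filter on dim probes, 0 members passed the adjusted threshold, 0 of them higher and 0 lower, and 0 of the related genes, 0 higher and 0 lower; no probe of 41168 was called by limma then, although 10666 had an unadjusted p under 0.05, and the cause was not tested. The methods' t-test with adjustment, which uses the spread of each probe on the 2 arrays alone, likewise called 0 members, 0 higher and 0 lower, 0 related genes, 0 higher and 0 lower, and 0 of 23685 probes, with 3539 at an unadjusted p under 0.05. Under each of the other alternatives run, between 19 and 28 members passed. After normexp and loess 2 members were higher and 17 lower, and the calls over all probes went from 6820 to 3709. Adding Aquantile could not alter these calls, since it scales the arrays' mean intensity and leaves the log ratios as they are. Median centring gave 6 higher members in place of 3, with the median of all tested probes at 0.15 in place of -0.01, and turned the mean log2 ratio of Mmp3 to 0.12. The tested lysyl oxidases and lysyl hydroxylases, Tgm2, Timp1, Plau, Plaur, Mmp10, Mmp13, Adam8, Adam9, Adamts9 and Adamts18 passed in each alternative that tested them, except the no-filter setting and the adjusted t-test. Leaving out an array leaves no residual degrees of freedom, so each array gives values only. Of the 6 tested members with opposite signs on the 2 arrays, Adam17, Mmp2 and Mmp3 fall under the naming rule above. Each log ratio already pairs RTOC with 2D culture of the same stage on 1 array, so there was no further block to add. Among the members under the naming rule above, calls gained under 1 or more alternatives were those of Adam15, Mmp8, Mmp14, Mmp15 and Plat. Other members were only counted, and the added higher calls with median centring fell among them. Dim members have bounds or uncertain ratios: Adamts3 ranged from 0.45 to 2.84 and Mmp8 from -2.01 to -0.47 over the alternatives.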
